A study of Homo sapiens with 2 samples.

Results

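The pericentromeric sequence of the autosomes was described as the 10 kb bins that lie within 2 Mb of the unread centromeric block of each chromosome. The block was taken as the largest distance between consecutive CpG dinucleotides listed on a chromosome, with or without calls. It is called unread because no CpG is listed in it, which differs from a listed CpG without a call. On chromosomes 13, 14, 15 and 22, whose listed sequence starts beside the centromere, the window was the 2 Mb from the first listed CpG. Bins entered when at least 20 of their CpG dinucleotides had over 5 calls in each line. This gave 6952 pericentromeric bins of 263275 autosomal bins, with 567415 CpG dinucleotides. Of the 7525 bins in the windows, 573 had fewer CpG dinucleotides than the minimum, 99 of these with no CpG read deeply enough. The 33 bins with 19 CpG dinucleotides, just outside the minimum, had median levels of 42.4% and 56.1% in OCI-AML3 and AML5, and the 38 bins with 20, just inside it, had 48.2% and 59.7%.

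Whole-genome bisulfite sequencing reads each cytosine as methylated or unmethylated after bisulfite conversion. It was done in 1 library each of 2 established acute myeloid leukemia (AML) cell lines, both grown in the same medium without treatment. OCI-AML3 carries a heterozygous missense mutation of the DNA methyltransferase DNMT3A and stood for DNMT3A mutant cells, and AML5, labelled OCI-AML5, stood for DNMT3A wild-type cells. The lines come from different donors and differ in more than DNMT3A, and no library was replicated, so the difference between the lines and the effect of the mutation cannot be told apart and no difference could be set against the spread between cultures.

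Human centromeres are built of alpha satellite, a tandem repeat in which some copies carry the CENP-B box, the binding site of centromere protein B. Beside them lie blocks of heterochromatin, segmental duplications and other satellites, among them satellites II and III, which are made of diverged copies of the pentamer GGAAT and form large blocks on chromosomes 1, 9 and 16. This sequence is normally densely methylated and late replicating. The related methyltransferase DNMT3B is known for keeping satellites II and III methylated: its germline mutations cause the ICF syndrome (immunodeficiency, centromeric instability and facial anomalies), in which those satellites lose methylation.

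Both kinds of satellite are shown by a stretch of 300 bases of GRCh37 (hg19), plus strand, to show the letters behind the comparison of satellite bins. The CENP-B box was searched on both strands as TTCG, 4 free bases, A, 2 free bases and CGGG, and 1.90% of pericentromeric bins held a match against 0.338% of all autosomal bins. Tandem pentamers were searched on both strands as at least 3 head-to-tail copies of GGAAT, which 1.25% of pericentromeric bins and 0.0896% of all autosomal bins held. A match describes the letters and is not a mapped satellite. Capitals mark the CENP-B box on chr2:92316839-92317138 and each pentamer, read here as its complement ATTCC, on chr4:49130451-49130750.
CENP-B box stretch: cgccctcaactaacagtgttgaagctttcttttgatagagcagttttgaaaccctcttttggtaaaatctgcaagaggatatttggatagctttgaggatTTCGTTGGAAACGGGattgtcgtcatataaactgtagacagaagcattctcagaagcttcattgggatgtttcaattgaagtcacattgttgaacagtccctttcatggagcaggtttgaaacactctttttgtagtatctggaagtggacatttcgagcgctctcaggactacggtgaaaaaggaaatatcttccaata
Tandem pentamer stretch: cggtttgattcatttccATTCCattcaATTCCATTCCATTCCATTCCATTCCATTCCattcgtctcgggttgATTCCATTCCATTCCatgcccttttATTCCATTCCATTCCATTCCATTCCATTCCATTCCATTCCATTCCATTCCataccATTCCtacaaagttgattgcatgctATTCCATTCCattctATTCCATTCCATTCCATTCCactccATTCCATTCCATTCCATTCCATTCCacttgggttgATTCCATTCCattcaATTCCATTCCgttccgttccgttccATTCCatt
The CpG at the left end of the CENP-B box was methylated in 83.3% of 36 calls in OCI-AML3 and 87.9% of 58 calls in AML5, and the CpG at its right end in 86.1% of 36 and 91.2% of 57 calls. All 7 CpG dinucleotides of that stretch averaged 73.2% and 81.5%. In the pentamer stretch, 3 of 6 CpG dinucleotides were read deeply enough, at 7.14%, 5.26% and 21.1% in OCI-AML3 against 61.1%, 69.8% and 61.4% in AML5. All 3 tested lower in OCI-AML3 (two-sided Fisher's exact test, Benjamini-Hochberg adjusted p of 0.00431, 4.37e-05 and 0.0316). This test compares the calls of 2 libraries. Within its bin, the pentamer stretch was chosen for holding the most CpG dinucleotides that tested lower, so their result follows from the choice. The CENP-B box stretch was chosen by its number of boxes instead, so the 2 stretches cannot be compared. Neither stretch is typical in size of difference. The pentamer stretch differed by -52.9 points and all CpG dinucleotides within 100 bases of tandem pentamers by -16.4. The CENP-B box stretch differed by -8.35 points. Over all boxes the CpG at the left end differed by -0.779 points and that at the right end by -2.95. Other CpG dinucleotides within 200 bases of a box differed by -1.26 points, and whole bins with a box by -2.68.

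A further 3 stretches come from bins among those farthest apart between the lines, with each CpG in capitals. The stretch on chr6:63180105-63180404 lies in no annotated gene.
6q stretch: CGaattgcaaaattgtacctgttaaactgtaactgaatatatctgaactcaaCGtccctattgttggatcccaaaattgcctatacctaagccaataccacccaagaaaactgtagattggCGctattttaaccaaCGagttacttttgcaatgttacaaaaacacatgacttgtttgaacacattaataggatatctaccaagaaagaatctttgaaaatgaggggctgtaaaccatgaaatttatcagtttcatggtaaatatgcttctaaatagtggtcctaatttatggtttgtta
The 4 CpG dinucleotides of the sparse 6q stretch stood at 6.25%, 0%, 4.76% and 4.35% in OCI-AML3 and at 80%, 84.2%, 100% and 91.3% in AML5, read 15 to 23 times.
The opposite direction is shown on chr22:17082244-17082543, which ends 234 bases before the start of the non-coding gene TPTEP1, and on chr3:89163642-89163941, in an intron of the ephrin receptor gene EPHA3 6.87 kb from its start.
TPTEP1 stretch: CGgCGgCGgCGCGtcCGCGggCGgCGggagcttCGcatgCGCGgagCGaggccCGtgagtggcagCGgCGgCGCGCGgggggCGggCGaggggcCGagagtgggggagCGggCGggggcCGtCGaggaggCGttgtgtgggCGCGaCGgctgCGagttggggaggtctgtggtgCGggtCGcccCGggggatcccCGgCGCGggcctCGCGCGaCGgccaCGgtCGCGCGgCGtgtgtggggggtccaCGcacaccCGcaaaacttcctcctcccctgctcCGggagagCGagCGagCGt
EPHA3 stretch: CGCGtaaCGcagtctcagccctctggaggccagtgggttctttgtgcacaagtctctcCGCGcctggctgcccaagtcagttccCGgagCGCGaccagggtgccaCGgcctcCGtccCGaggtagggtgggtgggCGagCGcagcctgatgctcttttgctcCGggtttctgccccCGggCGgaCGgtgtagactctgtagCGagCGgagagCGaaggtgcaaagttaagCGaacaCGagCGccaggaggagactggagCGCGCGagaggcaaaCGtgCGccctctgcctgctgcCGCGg
All 52 CpG dinucleotides beside TPTEP1 were covered and averaged 87.8% in OCI-AML3. In AML5 no methylated call was seen at any of them. With 12.7 calls per CpG on average the depth was low. In this stretch 51 of 52 tested higher in OCI-AML3, the count by which it was chosen. The 30 CpG dinucleotides in EPHA3 averaged 87.4% and 15.7%, and 28 tested higher in OCI-AML3.

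Reads were uneven in these windows. The median CpG had 31 calls in OCI-AML3 and 34 in AML5, so 3 calls, the smallest number taken as detected, correspond to 9.68% and 8.82% of calls. CpG dinucleotides with over 100 reads made up 3.40% and 2.43% of the covered ones but held 40.5% and 41.0% of all calls, against 5.97% and 2.41% of calls over all autosomes, and 1 CpG had up to 65211 calls. Means were therefore taken over CpG levels, with each CpG counted once. No call was seen at 7.82% and 6.25% of the CpG dinucleotides listed in the windows, against 2.68% and 1.57% elsewhere on the autosomes.

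Pericentromeric DNA was less methylated in DNMT3A mutant than in wild-type cells, and less methylated than the rest of the autosomes in both lines. The CpG dinucleotides of the windows averaged 62.2% in OCI-AML3 against 71.0% in AML5, a difference of -8.82 percentage points. All other autosomal bins had 67.8% and 75.6%, a difference of -7.71 points, and the 7539 bins within 2 Mb of the chromosome ends had 68.7% and 75.9%, a difference of -7.17 points. By share of all calls, the windows had 61.2% and 70.9%, a difference of -9.72 points with a 95% interval from -9.75 to -9.70 that covers counting error only, and calls on 1 read are not independent. The excess over the difference elsewhere, -1.11 points, was small beside the position of the windows themselves, whose level differed from that of other bins by -5.65 points in OCI-AML3 and -4.54 points in AML5. It also depended on the width: with 5 Mb windows the excess was 0.117 points, in the opposite direction.

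Of the 6952 bins, 6024 (86.7%) were lower in OCI-AML3, against 84.2% of other bins. A decrease by over 20 points was seen in 1118 bins (16.1%), near the 16.4% of all autosomal bins, and an increase by over 20 points in 91 bins (1.31%), below the 2.69% of all autosomal bins. The shift was thus broad and moderate. The median bin fell by 9.42 points against 7.20 points for other bins, and the central 90% of pericentromeric bins lay between -26.5 and 9.08 points against -31.4 and 13.2 points. By Fisher's exact test, 92838 CpG dinucleotides (16.4%) were lower in OCI-AML3, with 14.7% among all nuclear CpG dinucleotides, and 19566 (3.45%) were higher, with 3.86% among all. The test calls more where reads are deeper. CpG dinucleotides with over 100 reads were 3.40% and 2.43% in the windows, against 1.44% and 0.277% over all autosomes. With at most 100 reads in both lines, 15.4% of those in the windows were lower and 3.375% higher. Intermediate and low levels were common. Bins under 50% made up 38.1% of pericentromeric bins in OCI-AML3 and 17.1% in AML5, against 24.8% and 8.496% of other bins.

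Gene content went with these levels. Protein-coding genes overlapped 29.9% of pericentromeric bins and 51.8% of other bins. The 2081 pericentromeric bins in genes stood at 69.9% and 76.0%, a difference of -6.13 points, and the 4871 bins outside genes at 57.8% and 68.1%, a difference of -10.4 points. Outside the windows, bins in genes had 68.9% and 75.9% and bins without genes 66.2% and 74.97%. The lower level of pericentromeric DNA was thus measured in the bins without genes, while bins in genes had levels near those of genes elsewhere.

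Chromosome arms differed widely. Of 40 arms with pericentromeric bins, 38 were lower in OCI-AML3, with a median difference of -9.61 points, and 18 arms were lower by over 10 points. The exceptions were 3p, with 74.6% in OCI-AML3 and 66.7% in AML5, and 6p, with 67.6% and 67.4%. The largest decrease was on 6q, from 73.2% in AML5 to 45.8% in OCI-AML3. By chromosome, the largest decreases were on 11 (39.3% and 55.9%, a difference of -16.6 points), 19 (51.5% and 65.7%, -14.2 points) and 22 (62.0% and 76.0%, -14.03 points). The smallest were on 8 (74.1% and 76.3%, -2.12 points), 20 (70.4% and 73.8%, -3.43 points) and 3 (62.6% and 66.4%, -3.79 points). By share of all calls, which weights deeply read CpG dinucleotides, 37 arms were lower, and the difference on 5 arms turned or moved by over 1.5 times. On 8q it turned from -1.78 to 1.13 points (95% interval 1.01 to 1.25, counting error only). On 7q it was -4.09 instead of -14.4 points, on 16q -13.1 instead of -7.29, on 20p -1.78 instead of -0.285 and on 6p 1.17 instead of 0.229. On chromosome 6 as a whole it was -4.36 instead of -10.3 points, on 7 -6.97 instead of -13.9, on 8 -0.906 and on 20 -5.50. Chromosome 11 was the least methylated in both lines by either measure. The windows were less methylated than the rest of their own chromosome on 18 of 22 chromosomes in both lines, the exceptions being 4, 8, 18 and 20, and their decrease was larger than that of the rest on 14 of 22.

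**Figure D1:**
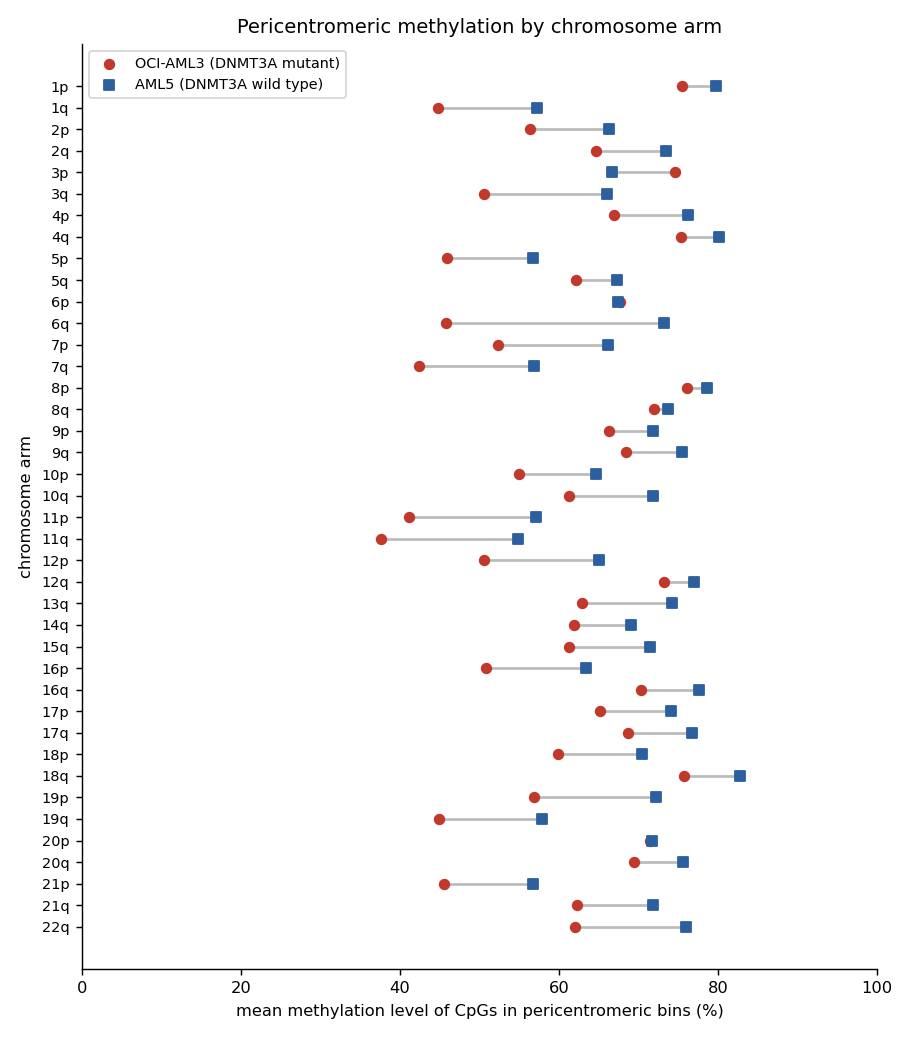
Mean methylation level (%) of CpG dinucleotides in pericentromeric bins on each of 40 chromosome arms, with a red circle for OCI-AML3 and a blue square for AML5 (1 library each) joined by a grey line. The circle lies left of the square on 38 arms, by 27.5 points on 6q, and right of it on 3p and 6p. By share of all calls, which is not drawn, OCI-AML3 was also higher on 8q.

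The chromosomes with large blocks of satellite heterochromatin did not stand out together. On chromosome 1 the short arm had 75.5% and 79.8% (a difference of -4.29 points) and the long arm 44.8% and 57.3% (-12.5 points). On chromosome 9, the differences were -5.46 points on 9p and -7.05 on 9q, and on chromosome 16, they were -12.5 points on 16p (50.9% and 63.4%) and -7.29 on 16q. The blocks themselves lie in the unread sequence, so these values describe their flanks. The acrocentric chromosomes, whose short arms carry the ribosomal DNA, differed by -11.3 points on chromosome 13 (62.9% and 74.2%), -7.15 on 14 (61.9% and 69.0%), -10.2 on 15 (61.2% and 71.4%), -10.4 on 21 (54.0% and 64.4%) and -14.03 on 22. Chromosome 21 is the only one of these with a short arm in the windows, and its level there was 45.5% and 56.8%.

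Methylation rose with distance from the unread block. Within 250 kb it averaged 57.8% in OCI-AML3 against 65.9% in AML5, at 250 to 500 kb it was 55.8% and 65.8%, and at 1750 to 2000 kb it was 67.6% and 75.4%, close to the 67.8% and 75.6% of other autosomal bins. The difference between the lines was between -10.5 and -7.81 points in every 250 kb step, so the gradient was present in each line. Without bins that hold either satellite motif the innermost step had 55.9% and 64.3%, and with bins of at most 100 reads per CpG it had 57.7% and 65.7%. Arm by arm, the innermost 500 kb were less methylated than the outermost 500 kb on 28 of 40 arms in OCI-AML3 and 29 of 40 in AML5. Genes changed along the same axis: bins in protein-coding genes were 7.61% of the innermost step and 44.2% of the outermost, and their part in the gradient was not tested.

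**Figure D2:**
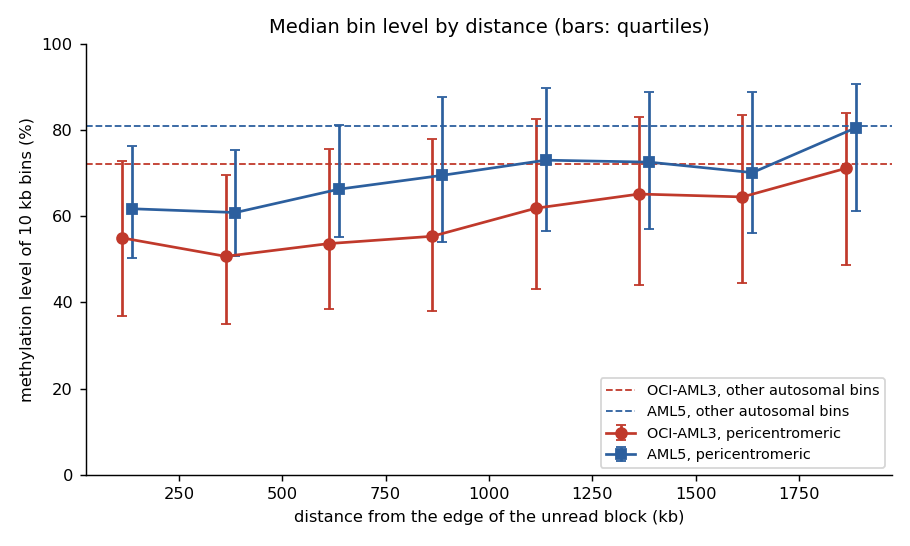
Median methylation level (%) of 10 kb bins in 250 kb steps from the edge of the unread block, in red for OCI-AML3 and blue for AML5, with bars from the lower to the upper quartile of bins and dashed lines for the median of other autosomal bins (72.0% and 80.9%). Medians rise from 55.0% and 61.8% in the innermost step to 71.1% and 80.5% in the outermost, and the red line stays below the blue one.

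The kinds of satellite motif went with unlike differences. The 87 bins with tandem pentamers had 50.1% in OCI-AML3 against 65.4% in AML5, a difference of -15.3 points, and 85 of 87 were lower in OCI-AML3. The 132 bins with a CENP-B box had 70.5% and 73.2%, a difference of -2.68 points, and 86 of 132 were lower. The 6735 bins with neither motif had 62.4% and 71.2%, a difference of -8.74 points. A decrease by over 20 points was seen in 15 of the 87 pentamer bins (17.2%), near the 16.4% of all autosomal bins, and in 2 of the 132 box bins. CpG dinucleotides tested lower made up 38.6% of those in pentamer bins and 10.2% of those in box bins, beside the 14.7% of all nuclear ones. The test calls more CpG dinucleotides where reads are deeper, and depth differed between these bins. Among bins of at most 100 reads per CpG the shares were 31.9% and 8.56%. Depth still differed there, with medians in OCI-AML3 and AML5 of 56.6 and 44.6 in pentamer bins and 17.9 and 28.9 in box bins. The part of depth in these shares was not tested. By means over CpG levels, the pentamer bins were less methylated than bins with neither motif in both lines, and the box bins more. By share of all calls this order held in OCI-AML3, with 59.9% for pentamer bins, 68.5% for box bins and 61.1% for neither. In AML5 it did not, with 73.0% for pentamer bins, 70.8% for box bins and 70.5% for neither.

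**Figure D3:**
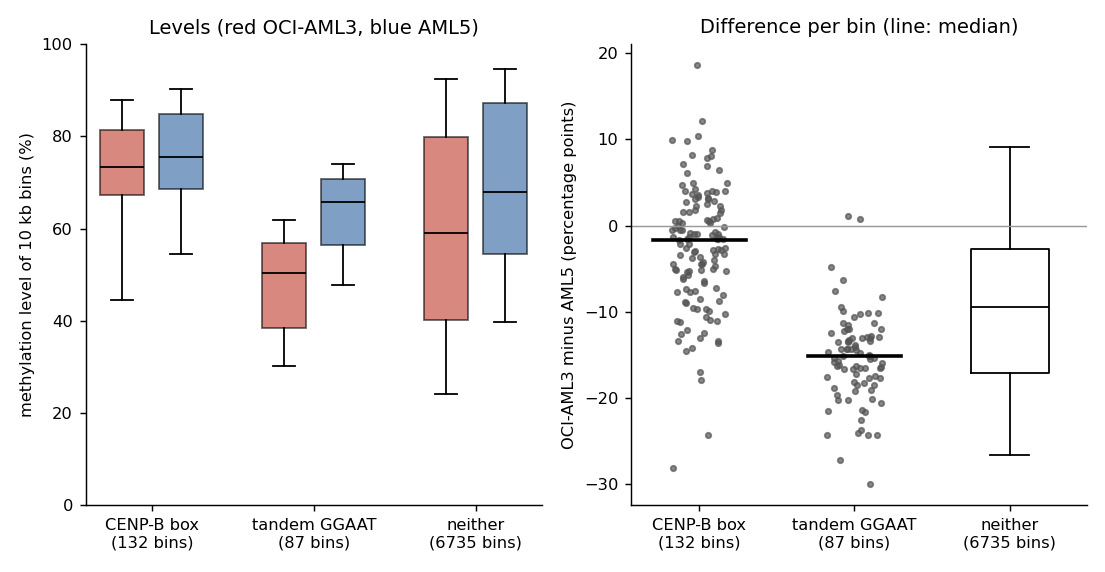
Left, methylation level (%) of pericentromeric 10 kb bins with a CENP-B box (132), with tandem GGAAT (87) or with neither (6735), where 2 bins with both motifs count in each of the first groups; boxes are quartiles with the median and whiskers from the 5th to the 95th percentile. Right, OCI-AML3 minus AML5 per bin in percentage points, as 1 point per bin or a box, with median lines at -1.62 for box bins, -15.2 for pentamer bins and -9.43 for bins with neither.

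Both kinds of bin were found together on 10 chromosomes, and on all 10 the difference between the lines was further toward lower methylation in OCI-AML3 in pentamer bins. The level itself was higher in box bins than in pentamer bins on 9 of the 10 in OCI-AML3 and on 6 in AML5. Chromosome 10 held most pentamer bins, 27, with 47.4% and 63.3%. Chromosome 16 held 16 with 55.1% and 70.4%, chromosome 4 held 10 with 51.3% and 66.2%, and chromosome 21 held 10 with 36.4% and 50.4%. The 3 pentamer bins of chromosome 22 showed the largest difference, 52.6% and 72.1%. The single pentamer bin of chromosome 17 was higher in OCI-AML3 by 1.06 points. Chromosome 1 held 2 pentamer bins, at 23.9% and 38.7%, and chromosome 9 none. Box bins were found on all 22 chromosomes and their differences ran from -12.2 points on chromosome 4 to 4.71 on chromosome 17, with OCI-AML3 the higher line on 8, 14, 15, 17, 19 and 21.

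Levels were also taken close to the motifs. The CpG at the left end of the box, measured at 590 sites, averaged 79.9% in OCI-AML3 against 80.7% in AML5, and the CpG at its right end, at 592 sites, 76.2% and 79.1%. Other CpG dinucleotides within 200 bases of a box averaged 75.1% and 76.4%. The 7086 CpG dinucleotides within 100 bases of tandem pentamers averaged 43.5% and 59.9%, and 36.7% of them tested lower in OCI-AML3 against 2.91% higher. By share of all calls these had 60.2% and 73.3%. Of the 5513 with at most 100 reads, 30.4% tested lower and 3.05% higher. In the 64 bins with 5 or more boxes the levels were 74.3% and 74.5%, while in the 54 bins with 20 or more pentamer runs they were 45.7% and 61.0%. Outside the windows, 149 bins with tandem pentamers had 65.9% and 76.2%, a difference of -10.4 points, and 757 bins with a box match 60.3% and 66.3%, a difference of -5.99.

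Depth, CpG density and place also differed between these bins. Pentamer bins had a median of 216 listed CpG dinucleotides and box bins 99, against 76 in bins with neither. All pericentromeric bins with 200 or more listed CpG dinucleotides together had a difference of -6.76 points by means over CpG levels. By share of all calls this difference was -11.997 points, against -13.1 points for pentamer bins. The set includes those pentamer bins that have as many CpG dinucleotides, so the 2 are not independent. The part of CpG density in the difference of pentamer bins was not tested. Reads per CpG had medians of 62.3 and 53.4 in pentamer bins, 20.7 and 32.0 in box bins and 28.3 and 32.2 in bins with neither. Among bins of at most 100 reads per CpG, the difference was -15.97 points with pentamers and -3.59 with boxes. Box bins lay nearest to the unread block, at a median of 37.1 kb. Within 100 kb of it, box bins had 73.3% and 74.3%, pentamer bins 53.8% and 67.5%, and bins with neither 56.9% and 64.2%, so the differences kept their order there. Reads from near-identical repeats can be placed on any copy, so a level describes the reads assigned to a place in the assembly rather than 1 locus.

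Of the 5 deepest bins, 4 held a satellite motif. A bin on chr7:61960001-61970000 with 8 boxes was read 6541 times per CpG in OCI-AML3 and 8793 times in AML5 and stood at 54.9% and 56.4%. A bin on chr1:121480001-121490000 with 7 boxes stood at 69.5% and 72.8%. The bins with pentamers on chr10:42590001-42600000 and chr16:46390001-46400000 stood at 62.0% and 72.2%, and at 56.1% and 71.2%. Reads per CpG in these 2 bins were 6707 and 3290 in OCI-AML3 and 5542 and 4855 in AML5. Of their CpG dinucleotides, 92 of 135 and 356 of 393 tested lower in OCI-AML3. At such depth small differences pass the test, so these shares cannot be set against the 14.7% of all nuclear CpG dinucleotides. A bin on chr21:9820001-9830000 with the microRNA genes MIR3648 and MIR3687 and neither motif stood at 51.1% and 65.8%. The 107 bins with over 100 reads per CpG in either line had 55.4% and 65.4% together.

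Chromosomes 3 and 6 carried the most opposed arms. On 3p, 31 of 194 bins were higher in OCI-AML3 by over 20 points and 2 lower, whereas on 3q (50.6% and 66.0%) 73 of 187 were lower and none higher. The gain on 3p was in its outer part. The innermost 100 kb of 3p stood at 84.2% and 88.5%, and from 600 kb outward every 100 kb step was higher in OCI-AML3, up to 84.6% and 58.2% at 1700 to 1800 kb. On 3q the innermost 100 kb stood at 76.0% and 80.4%, and the steps from 400 kb outward differed by -21.4 to -14.5 points. AML5 had similar levels on both arms in these steps, from 51.4% to 66.3%, and OCI-AML3 differed between the arms, with at least 64.5% in each 3p step and at most 47.7% in each 3q step.

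On 6q, 115 of 177 bins were lower in OCI-AML3 by over 20 points and none higher. Levels in AML5 rose from 47.9% at 300 to 400 kb to 91.3% at 1000 to 1100 kb, while OCI-AML3 was at 32.4% and 49.8% in the same steps. Of 11 steps of 100 kb lower by over 30 points on any arm, 9 were on 6q. On 6p the innermost 400 kb were higher in OCI-AML3 in every step, with 74.5% and 54.3% at 100 to 200 kb. It was also higher in every 6p step from 1000 to 1500 kb, by 2.75 to 13.8 points, and the outermost step was lower, with 55.7% and 68.0%. Between 2 and 5 Mb from the block the difference was -9.76 points on 3p, -15.8 on 3q, -18.4 on 6p and 11.6 on 6q, so 3p, 6p and 6q turned over at this scale. Over the 39 arms with bins at that distance, 33 kept the sign of their window and 6 did not. Reads per CpG in OCI-AML3 relative to AML5 were 0.73 on 6q and 0.86 on the rest of chromosome 6, and 0.79 and 0.83 for 3p and the rest of chromosome 3.

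**Figure D4:**
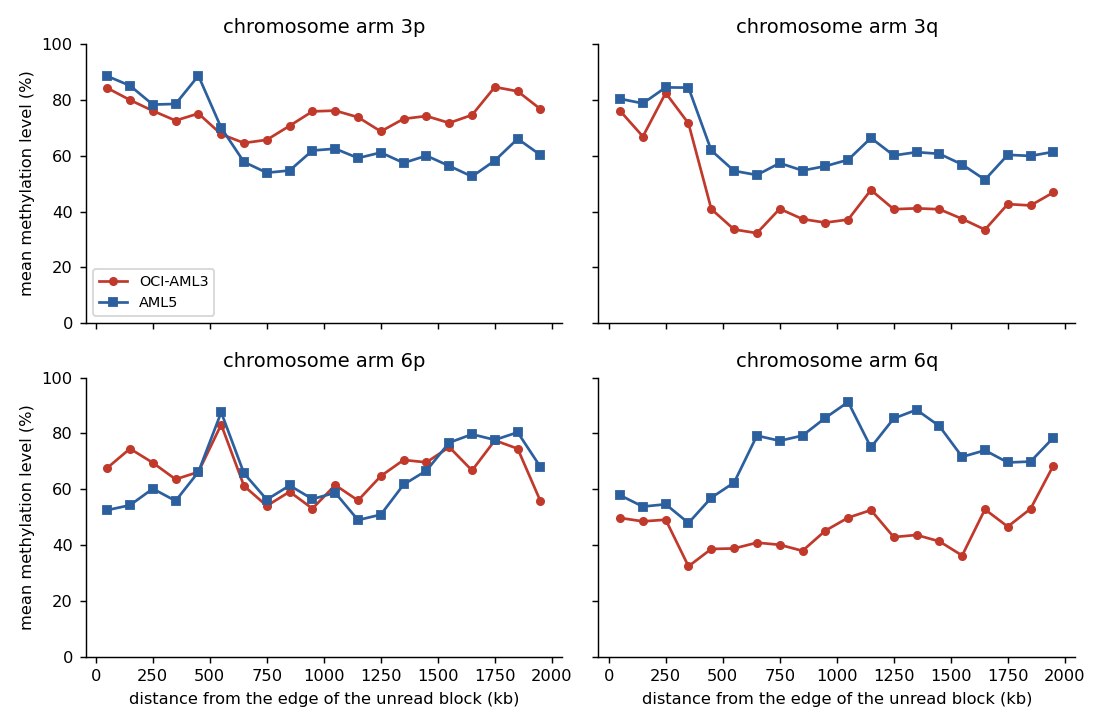
Mean methylation level (%) in 100 kb steps from the edge of the unread block on arms 3p, 3q, 6p and 6q, in red for OCI-AML3 and blue for AML5, 1 library each. The red line lies above the blue one from 600 kb outward on 3p and within 400 kb and from 1000 to 1500 kb on 6p, and below it along 3q and 6q.

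Single bins showed larger differences than the windows as a whole. The 10 bins with the largest decrease lay on 6q (4 bins), 19p (3 bins), 1q, 10q and 22q, with differences of -82.5 to -56.2 points. A bin of HNRNPF, which encodes an RNA-binding protein that acts in splicing, led on chr10:43890001-43900000 with 9.73% and 92.3% over 237 CpG dinucleotides, of which 216 were lower in OCI-AML3. Its neighbours in the same gene stood at 84.9% and 94.8%, and at 24.96% and 27.0%. The next bin, chr1:144490001-144500000, in the gene model AL592284.1, had 4.43% and 83.2% but only 24 of its 140 CpG dinucleotides were covered in both lines. The bins on 6q included 1 in an intron of KHDRBS2, which encodes an RNA-binding protein, with 34.2% and 92.0%.

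The 10 bins with the largest increase rose by 34.7 to 55.3 points. They lay on 3p (4 bins), 6p (2 bins), 5q, 14q, 20p and 22q. The first was chr22:17080001-17090000 at the start of TPTEP1, with 76.5% and 21.2% over 352 CpG dinucleotides, of which 255 were higher in OCI-AML3 and 42 lower. EPHA3 held the third, with 84.0% and 42.1%. The bin of 20p lies in MIR663AHG, the host gene of a microRNA, with 74.9% and 39.1%, and that of 14q at the olfactory receptor pseudogene OR4U1P, with 81.5% and 46.8%.

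TPTEP1, a transcribed pseudogene of the phosphatase gene TPTE, held a bin of each list. From the gene start inward, the bins after the higher one were all lower in OCI-AML3, with 36.6% and 94.3% in the bin centred 22.2 kb from the start and 46.7% and 78.7% in the last bin of the gene. The zinc finger genes ZNF492 and ZNF730, in the cluster of 19p, had a similar shape. Their promoters, taken as the 2000 bp before and after the most upstream TSS, were higher in OCI-AML3 on average, with 58.7% against 39.7% and 66.4% against 44.2%. Within them CpG dinucleotides tested in both directions, 51 higher and 21 lower at ZNF492 and 54 higher and 27 lower at ZNF730. The bodies of both genes outside the promoters were lower, with 48.4% against 93.9% and 48.4% against 84.0%. ZNF681 was alike, with 54.4% against 38.2% at the promoter (36 CpG dinucleotides higher and 15 lower) and 38.5% against 90.7% in the body. These zinc finger proteins bind DNA through arrays of fingers, and many members of the cluster repress transposable elements.

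**Figure D5:**
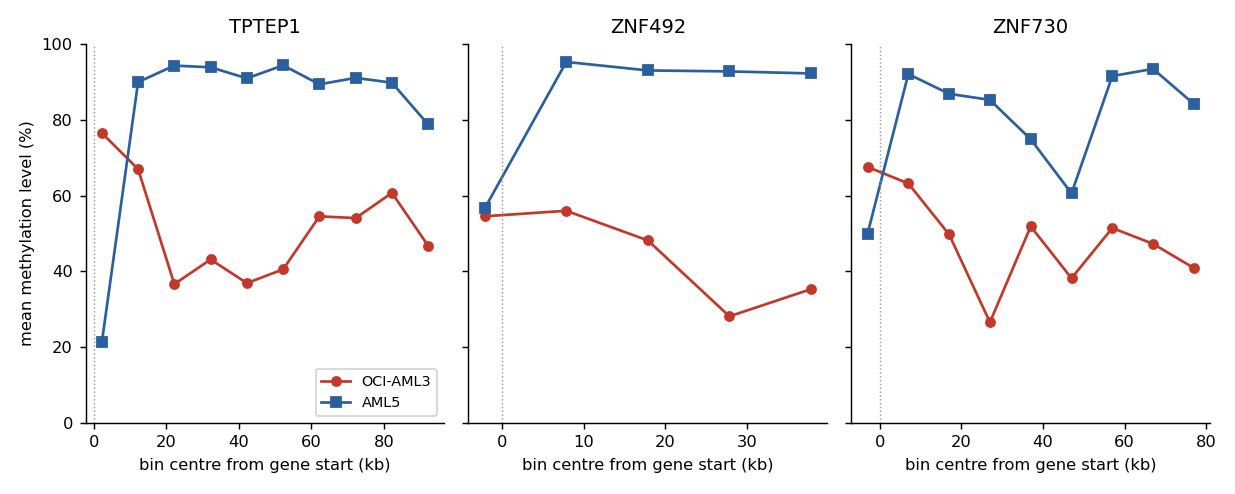
Mean methylation level (%) of 10 kb bins along TPTEP1, ZNF492 and ZNF730, by distance of the bin centre from the gene start (dotted line) in kb, in red for OCI-AML3 and blue for AML5. OCI-AML3 lies above AML5 in the bin at the start of TPTEP1 (76.5% and 21.2%) and ZNF730 (67.6% and 49.9%), close to it at ZNF492 (54.5% and 56.6%), and below it in every later bin.

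All 30 zinc finger promoters in the windows were measured. Of these, 25 were lower in OCI-AML3, with a median difference of -1.71 points, 1 was higher by over 20 points and none lower, beside 8.58% and 1.68% of all autosomal promoters that were lower and higher by that much. Of the 520 zinc finger promoters elsewhere, 2.88% were lower and 3.46% higher by over 20 points, with a median difference of -3.01 points. The 4 farthest apart were ZNF730 (22.2 points higher), ZNF716 on 7p (49.9% and 69.8%, a difference of -19.97 points, just short of the threshold), ZNF492 (18.96 points higher) and ZNF681 (16.2 points higher). Over the 12 genes of 19p the body differed by a median of -17.8 points and the promoter by -2.20, with the body further toward lower methylation in 10 of 12 genes. Over the 18 genes elsewhere the medians were -2.70 and -1.50, in 9 of 18 genes. Gene bodies were compared with promoters after their values had been seen. Reads per CpG on 19p were lower in OCI-AML3, at 0.57 of AML5 against 0.99 on the rest of chromosome 19, and the part of depth in these differences was not tested.

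Most promoters in the windows changed little. Of 396 protein-coding genes that start in a pericentromeric bin, 372 promoters had at least 10 covered CpG dinucleotides. Median levels were 30.2% in OCI-AML3 and 39.6% in AML5. The median difference per promoter was -4.74 points, near the -4.69 points of all autosomal promoters. Of the 372, 319 were lower, beside 16050 of all 18887 autosomal promoters. A decrease by over 20 points was seen in 34 (9.14%), near the 8.58% of all autosomal promoters. An increase by over 20 points was seen in 10 (2.69%), against 1.68% of all. The largest decreases were at SYT10, a synaptotagmin of vesicle release (34.3% and 72.9%), and ITPRIPL1 on 2q (37.1% and 75.6%). They were followed by CCT8L2, a chaperonin-like gene (48.5% and 85.2%), and TMEM121B, which encodes a membrane protein (10.8% and 47.3%), both on 22q. CORIN, the protease that activates atrial natriuretic peptide, stood at 15.97% and 52.0%, and LNX1, a ubiquitin ligase, at 52.6% and 84.2%. The others of the 10 were TRIM51 and the olfactory receptors OR4A15, OR5M11 and OR8I2, all on 11q, with differences of -35.6 to -31.7 points.

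Among the increases were MYLK3, the cardiac myosin light chain kinase (57.8% and 28.4%), SYNDIG1, a regulator of synapse differentiation (76.0% and 48.0%), MAL, a lymphocyte membrane protein (64.4% and 37.4%), and TBX15, a developmental transcription factor (88.0% and 66.6%). RPSA2, whose start lies beside that of ZNF681 in a window that shares CpG dinucleotides with it, had 66.8% and 43.97%. The remaining ones were ZNF730 and the olfactory receptors OR4L1 (84.2% and 42.2%), OR4K17, OR4K5 and OR11G2 on 14q. The olfactory receptors, odorant receptors of the nasal epithelium, were therefore counted as a group after these values had been seen. All 37 measured on 11q were lower in OCI-AML3, 19 by over 20 points, with medians of 33.0% and 53.5%, and so were the 3 on 11p. Of all 18887 autosomal promoters measured, 16050 were lower, 8.58% by over 20 points, and 1.68% were higher by as much. On 14q, 3 of 12 were lower and 4 higher by over 20 points, with medians of 79.5% and 63.9%. These promoters hold 10 to 50 covered CpG dinucleotides, and their direction was that of 11q (a mean difference of -17.2 points) but not of 14q as a whole (-7.15 points).

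Gene families that lie beside many centromeres were measured at few promoters. The POTE genes, a primate family expressed in testis, prostate and some tumours, were measured at 7 promoters. Of these, 6 were lower in OCI-AML3, none by over 20 points, with a median difference of -8.99 points, and 3 were over 80% in both lines. POTEG differed most, with 59.0% and 71.2%, and POTEM had 72.8% and 83.1%. POTEH had 84.3% and 88.0%, POTEB2 81.8% and 90.8%, POTEC 68.0% and 77.4% and POTED 66.7% and 73.3%. POTEA was the exception, with 88.8% and 84.7%. TPTE, a testis phosphatase gene on 21p, had 86.7% and 88.9%, and its relative TPTE2 87.8% and 88.3%. ANKRD30A, a breast differentiation antigen and the only measured one of 2 ANKRD30 genes, had 82.7% and 86.1%. No BAGE or ANKRD20A promoter was among the 396 genes. These families have near-identical copies, so reads may have been placed on another copy.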

How the data were processed

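DNA of both lines, spiked with unmethylated lambda DNA, was bisulfite converted, amplified and sequenced as 100 bp paired-end reads by the authors. Per the labels, reads were aligned to hg19 with Bowtie 0.12.8 and Bismark. Whether duplicate reads were removed is not given in the sources used here, and duplicates would make counts look more precise than they are. For each CpG the authors deposited the counts of its methylated and of its unmethylated calls over both strands, neither smoothed nor normalized. All 26752702 autosomal positions were the G of a CpG in GRCh37. Of mitochondrial calls, 0.168% in OCI-AML3 and 0.101% in AML5 fell in the column taken as methylated. The totals were 902802339 calls in OCI-AML3 and 894828667 in AML5.

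Levels per CpG, means over bins and promoters, Wilson and Newcombe 95% intervals, and two-sided Fisher's exact tests with Benjamini-Hochberg adjustment over 24454751 nuclear CpG dinucleotides at 0.05 were computed from the counts with Python 3.11.15 and numpy 2.4.6. The Fisher computation was tested on simulated data. With 1 library per line no test against culture spread was possible, so bins and promoters were called past a difference of 20 percentage points. Genes, TSS and exons came from GENCODE version 44 lifted to GRCh37, and sequence from the GRCh37 genome read with pyfaidx 0.9.0.4. Repeat-masked shares were not computed, since the genome file used carries no repeat mask. Named were the 10 bins and the 10 promoters with the largest decrease and increase, the 5 deepest bins, the 3 chromosomes with the largest and smallest difference, chromosomes 1, 9, 16 and the acrocentric ones, and the POTE, TPTE, BAGE, ANKRD30, ANKRD20A and zinc finger genes. Chromosomes 3 and 6 and the olfactory receptors were singled out after their values were seen. The windows and lists were chosen with earlier results of these data known. Alternatives changed the read and CpG minimum, a read maximum, the window, the bin size, the averaging, the thresholds and the chromosomes. The sequence of 1 further stretch is not reported here.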

Additional observations from a re-analysis of the deposited data

How the results depend on the processing

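The mean difference between the lines kept its direction under every alternative but moved by more than its counting interval. It was -8.66 percentage points with at least 10 reads, -9.63 with windows of 1 Mb, -7.63 with windows of 5 Mb, -8.51 with at least 50 CpG dinucleotides per bin, -8.78 with at most 100 reads, -8.56 without chromosomes 13, 14, 15 and 22, -8.87 without 1, 9 and 16, -9.72 by share of all calls and -8.89 with bins of 50 kb. Bins lower and higher by over 20 points numbered 599 (17.5%) and 39 (1.14%) of 3427 with 1 Mb. They were 2750 (15.4%) and 441 (2.47%) of 17837 with 5 Mb. With at least 50 CpG dinucleotides they were 578 (12.9%) and 24 (0.536%) of 4480. Bins of 50 kb gave 164 (10.9%) and 11 (0.731%) of 1504. Past 10 points there were 3352 (48.2%) and 323 (4.65%), and past 30 points 219 (3.15%) and 22 (0.32%). Over all autosomal bins, 16.4% and 2.69% passed in the main setting. CpG dinucleotides lower and higher by Fisher's exact test numbered 47981 (18.2%) and 9293 (3.52%) with 1 Mb. With 5 Mb they numbered 226368 (14.7%) and 60099 (3.90%). The windows and minima change how many bins and CpG dinucleotides are counted. All other alternatives left these counts within 1.5 times.

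The following alternatives were chosen after seeing the data. The difference in the windows minus that in other autosomal bins was -1.91 to -0.758 points under 8 alternatives and turned to 0.117 points with 5 Mb windows, and the cause was not tested. The difference in pentamer bins ran from -15.7 to -13.1 points and that in box bins from -3.69 to -0.184 (5 or more boxes) points. No paired analysis was possible because each line has 1 library. At the median depth, the 3 calls taken as the smallest number detected are 9.68% of the calls of a CpG in OCI-AML3 against 8.82% in AML5.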

Other observations

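The X chromosome, not part of the autosomal windows, was measured the same way. The 17923 covered CpG dinucleotides within 2 Mb of its unread block averaged 57.6% in OCI-AML3 against 70.6% in AML5, which differ by -12.9 points, and the rest of the chromosome averaged 65.9% and 74.3%.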
